A study of Mus musculus with 12 samples.

Results

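Gene expression in cultured mouse cardiac fibroblasts given the kinase inhibitor AG1296 at 10 uM was compared with that in untreated cells. The comparison rests on the 3 arrays labelled with the inhibitor at 10 uM and the 3 labelled untreated, 6 of the 12 arrays of the series, and covers all 19938 genes that had a probe set of their own. The cells were colony-forming fibroblasts (cCFU-F) from the hearts of 12-week-old male C57BL/6 mice. They had been sorted as positive for SCA1 and PDGFRα and negative for CD31, and were grown as bulk cultures at passage 0. The other 6 arrays held cells of the same kind given AG1296 at 1 uM (3 arrays) or the ligand PDGF-AB at 50 ng/ml (3 arrays). No group carried a mutation or a transgene, per the labels. The length of treatment and the vehicle were not given in the sources read, so vehicle and inhibitor effects cannot be told apart. Nothing in the labels says that arrays of a group came from separate cultures or mice, and p-values then measure only the spread between these arrays.

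AG1296 is a small molecule that blocks the kinase activity of the PDGF receptors and, less selectively, that of KIT and of FGF receptors. PDGF receptor alpha is both a marker of cardiac fibroblasts and a receptor through which they are driven to divide and migrate. When a PDGF ligand joins a pair of receptors, they phosphorylate each other and recruit the RAS-ERK, PI3K and phospholipase C pathways, which switch on immediate early genes and later programmes of division, secretion and matrix turnover. Cultured fibroblasts also make some PDGF themselves, so the receptors can be active without added ligand.

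The values are log2 expression per gene, where a difference of 1 is a 2-fold change. The medians of the 6 arrays lay between 4.03 and 4.13, and no 2 arrays held identical values. Pearson's r across genes (not independent points) was 0.994 to 0.996 within a group and 0.992 to 0.994 between the groups. The fibroblast markers fitted the label. The mean level of the 15 measured markers was 8.90 to 8.94 on the untreated arrays and 8.99 to 9.04 at 10 uM, and only Lum and Dpt lay below every array median in both groups. Tcf21, a transcription factor of cardiac fibroblasts, stood at 8.15, 8.33 and 8.05 untreated and at 8.23, 8.06 and 7.95 at 10 uM (log2 fold change -0.10, adjusted p = 0.843). Markers of other cell types were low in most lists. Of 16 leukocyte markers 14 lay below every array median in both groups, Ptprc among them, as did 11 of 16 endothelial markers, with Pecam1 at 2.94, 2.92 and 3.21 untreated and Cdh5 at 3.15, 3.06 and 3.07. The same held for 10 of 15 cardiomyocyte markers, 6 of 8 Schwann cell markers and 5 of 7 adipocyte markers, and none of the members of these 3 lists or of the leukocyte list passed the test. Pericyte and smooth muscle markers were less low, with 6 of 15 below every array median and a mean level of 5.55 to 5.62 untreated and 5.62 to 5.67 at 10 uM. That list held 1 rise (Myh11) and 1 fall (Mcam), and the mesothelial list, described further on, had 4 of 15 below every median. In such bulk cultures fewer cells of a type and less RNA per cell cannot be told apart.

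At 10 uM, 375 of 19938 genes (1.88%) differed from untreated cells at an adjusted p under 0.05 in limma, a linear model fitted across all genes with Benjamini-Hochberg adjustment. Of these, 241 (1.21%) were higher and 134 (0.672%) lower. The called changes were of moderate size, with a median log2 fold change of 0.53 among the rises and -0.58 among the falls, and 13 rises and 11 falls reached 1. Over all genes the median was 0.01, and most genes lay between -0.25 and 0.28 (quantiles 0.05 and 0.95), as the plot of all genes shows. In every called gene the 3 treated arrays lay beyond the 3 untreated ones, which was so for 18.0% of all genes. Leaving out single arrays showed how firm the calls were: 176 of the 375 (110 rises and 66 falls) were kept without any 1 of the 12 arrays. The count was 245, 234 and 227 without untreated replicate 1, 2 and 3, and 229 and 219 without 10 uM replicate 1 and 2. No called gene changed sign under any alternative. Since the groups did not overlap in these genes, leaving out an array could not change a sign, so this is no further check. Below, a call is said to be lost where leaving out 1 array ended it. All others are among the 176. Each gene list below was written with earlier results of these data known. Its counts are to be read beside the shares over all genes, 1.21% higher and 0.672% lower.

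**Figure D1:**
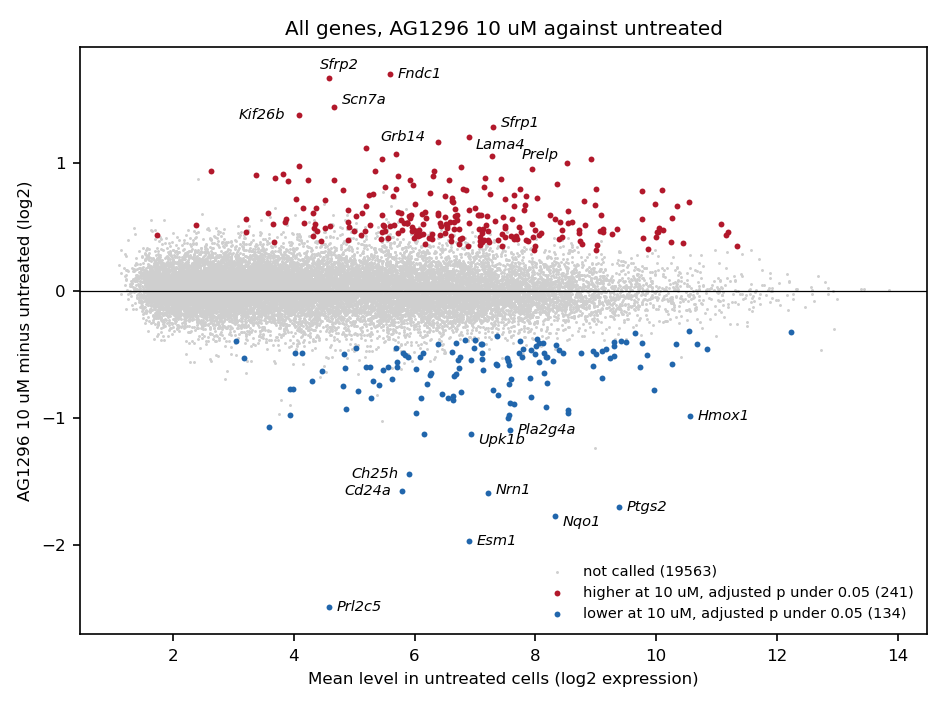
Each point is a gene. The horizontal axis gives its mean over the 3 untreated arrays (log2 expression), the vertical axis the mean at AG1296 10 uM minus the untreated mean (log2). The 241 red points are genes called higher and the 134 blue points genes called lower. The median untreated level was 6.65 for rises and 7.26 for falls, against 4.44 over all genes. The deepest fall was Prl2c5 at -2.49.

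Among the largest rises were genes of secreted or surface proteins. Fndc1, which encodes a secreted protein with fibronectin type III domains, stood at 5.63, 5.57 and 5.60 in untreated cells and at 7.27, 7.36 and 7.28 at 10 uM. The 2 groups were far apart relative to their spread, and Fndc1 rose by 1.70 ± 0.09 (log2 fold change ± SE, n = 3 arrays a group; adjusted p = 6.88e-07). Scn7a, a sodium channel protein involved in salt sensing, went from 4.64, 4.77 and 4.61 to 6.33, 6.24 and 5.78 and rose by 1.45 ± 0.13 (adjusted p = 5.42e-05). Rgs4, which shortens signalling by G protein-coupled receptors, rose from 5.34, 5.09 and 5.18 to 6.26, 6.53 and 6.17, a change of 1.12 ± 0.17 (adjusted p = 0.00328). For these genes no treated array reached down to the untreated ones. Map2, a microtubule-associated protein, Galnt16, which starts mucin-type O-glycans, Clmp, an adhesion molecule of tight junctions, and Plce1, a phospholipase C that binds RAS, rose by 1.06, 1.07, 1.03 and 0.98. Plce1 stood at 4.31, 4.11 and 3.85 untreated, near the array medians, where background can limit the fold change.

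Among the largest falls were genes of enzymes and of signalling proteins. Esm1, the secreted proteoglycan endocan, stood at 6.90 on each of the 3 untreated arrays and at 4.59, 5.28 and 4.95 at 10 uM, a fall of 1.96 ± 0.18 (adjusted p = 5.42e-05). Cd24a, a surface glycoprotein, went from 5.58, 5.94 and 5.85 to 4.26, 4.38 and 4.02 and fell by 1.57 ± 0.15 (adjusted p = 8.31e-05). Ch25h, which makes 25-hydroxycholesterol, went from 5.99, 5.87 and 5.86 to 4.54, 4.33 and 4.54 and fell by 1.44 ± 0.11 (adjusted p = 2.01e-05). In these genes the highest treated array lay more than 1 below the lowest untreated one. Hmga2, a chromatin protein of growing mesenchymal cells, fell by 1.00 ± 0.14, from 7.62, 7.55 and 7.47 to 6.83, 6.61 and 6.21. Prl2c5, a proliferin, fell by 2.49 ± 0.22, from 4.84, 4.58 and 4.34 to 2.72, 1.97 and 1.61. Its treated values lay below every array median, so background limits the size of that fall. The proliferin genes are near-identical copies, and which of them a probe set reads is uncertain.

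**Figure D2:**
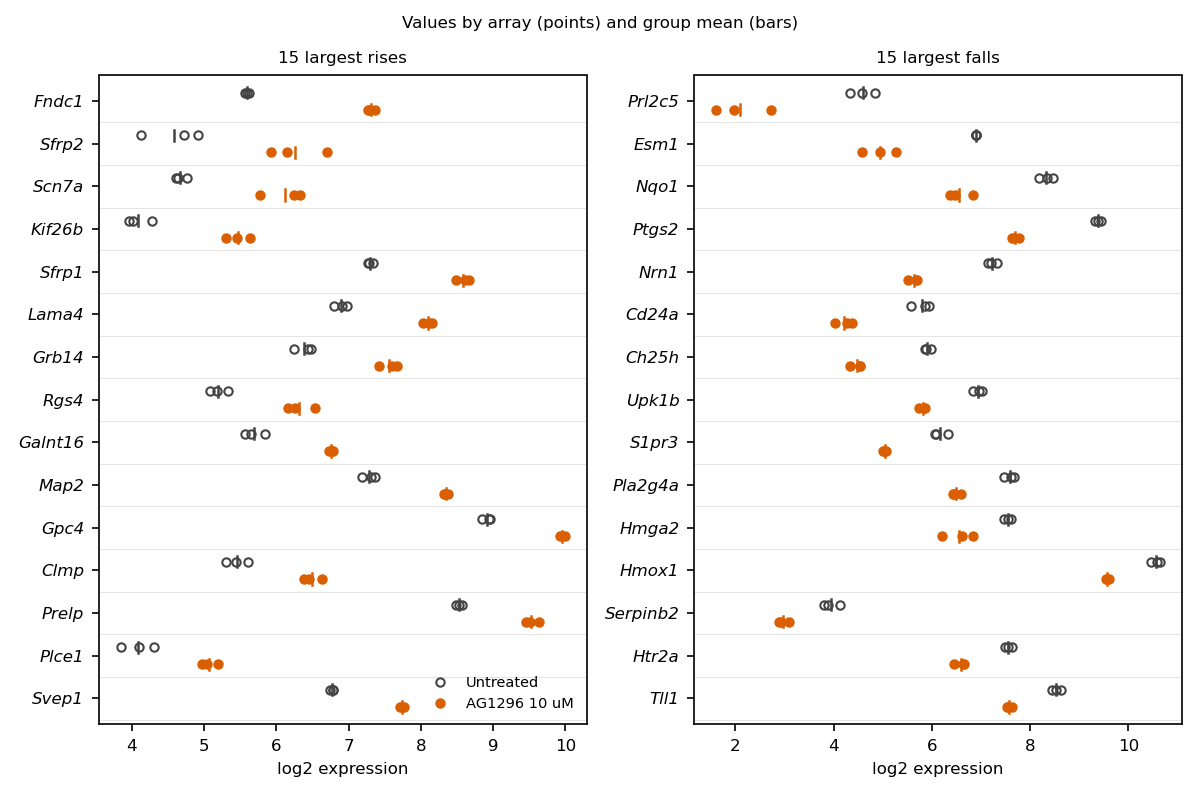
Values of each array (points) and group means (bars) in log2 expression for the 15 largest rises (left) and the 15 largest falls (right) among the called genes that can be named. Open grey points are untreated cells and filled orange points AG1296 10 uM, 3 arrays each. In each of the 30 genes the groups do not overlap, and Sfrp2 and Prl2c5 spread widely between arrays of a group.

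The receptors and ligands of the pathway that AG1296 targets held a single call. Pdgfra, the receptor used in the sort, stood at 9.49, 9.41 and 9.35 untreated and at 9.00, 9.06 and 9.01 at 10 uM. The groups did not overlap, and Pdgfra was the 1 called gene among the 7 PDGF receptors and ligands, at -0.40 ± 0.09 on the log2 scale (adjusted p = 0.0361). That call was lost without any 1 of the 6 arrays compared (adjusted p up to 0.152), without any 1 of the 1 uM arrays or PDGF-AB replicate 2 (up to 0.0625), and when only the 6 arrays were fitted (0.0776). Pdgfrb, the other receptor, stood at 9.06, 8.81 and 8.97 untreated and at 9.09, 9.19 and 9.21 at 10 uM (0.22 ± 0.10, adjusted p = 0.399). The ligand Pdgfa had 7.19, 7.06 and 7.25 untreated and 7.47, 7.57 and 7.44 at 10 uM. Its groups did not overlap either, but its difference of 0.33 ± 0.09 did not pass (adjusted p = 0.0788). Pdgfd stood at 0.28 (adjusted p = 0.175), Pdgfb at -0.10 (0.858) and Pdgfc at -0.01 (0.992). Of the other kinases that the inhibitor is known to bind, Kit stood at 0.12 (0.739), below every array median, and Fgfr1 at 0.22 (0.312). Among 45 other receptor tyrosine kinases 1 fell and 0 rose. It was Mertk, a receptor of the TAM family through which dying cells are taken up, which went from 6.54, 6.60 and 6.53 to 5.58, 6.02 and 5.53 (-0.84 ± 0.14, adjusted p = 0.00461).

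A few of the transcripts that follow ERK activity were called lower. Of 21 genes of ERK feedback and output 3 fell and 0 rose, against 0.672% and 1.21% of all genes. The median log2 fold change of the list was -0.23, against 0.01 over all genes, and 4 of the 21 lay above 0. Its mean level was 6.61 to 6.66 on the untreated arrays and 6.40 to 6.45 at 10 uM. Only 1 of the 3 falls was kept. Dusp6, the phosphatase that returns ERK to its inactive state, stood at 7.24, 7.39 and 7.27 untreated and at 6.60, 6.53 and 6.43 at 10 uM. It fell by 0.78 ± 0.10 (adjusted p = 0.000647), and each treated array was below each untreated one by over 0.6. Spry2, an inhibitor of receptor signalling, and Phlda1 had log2 fold changes of -0.38 and -0.39, but both calls were lost. That of Spry2 was lost without any 1 of the 6 arrays compared, 1 uM replicate 1 or PDGF-AB replicate 3 (adjusted p up to 0.162). That of Phlda1 was lost without any 1 of them but untreated replicate 3, and without any 1 uM array or PDGF-AB replicate 2 or 3 (up to 0.21). Other members of the same feedback were not called. Spry4 stood at 0.04 (adjusted p = 0.94), Etv5 at 0.22 (0.594) and Dusp4 at -0.23 (0.277). Spry4 and Etv5 were among the 4 members above 0. Immediate early transcription factors are the genes that growth factors switch on within minutes. Of 24 measured, 2 fell and 0 rose, against 0.672% and 1.21% of all genes. Their median log2 fold change was -0.11, and 7 of the 24 lay above 0. Fosb, a subunit of AP-1, went from 6.11, 6.24 and 5.98 to 5.35, 5.15 and 5.31 and fell by 0.84 ± 0.10 (adjusted p = 0.00051). Ier2 fell by 0.65 ± 0.11 (adjusted p = 0.00784, and 0.057 with only the 6 arrays fitted). Egr1, the classic early gene of this pathway, stood at 6.07, 6.00 and 5.95 untreated and at 6.02, 5.89 and 5.92 at 10 uM (-0.06, adjusted p = 0.856), Jun at -0.26 (0.3) and Klf4 at 0.11 (0.819). In the PI3K and FOXO list of 24 genes, Grb14, an adapter that binds the insulin receptor, rose by 1.17 ± 0.10 (adjusted p = 3.31e-05), from 6.49, 6.43 and 6.25 to 7.60, 7.66 and 7.42. The pseudokinase gene Trib2 was the 1 fall of that list (-0.42 ± 0.08), with its call lost without untreated replicate 2 or 3 or 10 uM replicate 3 (adjusted p up to 0.0642).

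Ligands of other receptor kinases moved both ways. Of 35 measured, 3 rose and 3 fell. Vegfd, which acts on receptors of lymphatic and blood vessels, stood at 9.02, 9.02 and 8.98 untreated and at 9.86, 9.92 and 9.64 at 10 uM and rose by 0.80 ± 0.09 (adjusted p = 0.000234). Gas6, a ligand of MERTK and its relatives, went from 7.13, 7.30 and 7.06 to 8.06, 8.18 and 7.92 and rose by 0.89 ± 0.13 (adjusted p = 0.00328). Gas6 was thus called higher and its receptor gene Mertk lower. Since the 3 treated arrays lay beyond the untreated ones in every called gene, their agreement over arrays adds nothing. A link between the changes of these genes was not tested. The EGF receptor ligand Ereg fell by 0.50 ± 0.08, from 8.99, 9.11 and 8.92 to 8.50, 8.48 and 8.56, and Efnb2, a ligand of Eph receptors, by 0.53 ± 0.08, from 7.57, 7.48 and 7.54 to 7.01, 7.04 and 6.95. The calls of Igf1 (0.44) and Fgf2 (-0.49) were lost, that of Igf1 without untreated replicate 2 or 3 or any 10 uM array (adjusted p up to 0.119), that of Fgf2 without untreated replicate 1 or 2 or 10 uM replicate 2 or 3 (up to 0.0856). In the insulin-like growth factor axis of 20 genes 4 rose and 0 fell, against 1.21% and 0.672% of all genes. Igfbp7, a secreted binding protein, rose by 0.56 ± 0.10 (adjusted p = 0.00904), and the proteases Pappa and Htra1, which cleave the binding proteins, stood at 0.49 and 0.42. These 2 calls were lost without untreated replicate 1 or 10 uM replicate 2 and, for Htra1, also without untreated replicate 3 or 10 uM replicate 3 (adjusted p up to 0.0736 and 0.107).

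Genes controlled by NRF2 held the largest share of falls among the lists of more than 4 genes. NRF2 is the transcription factor that, on oxidative or electrophilic stress, switches on genes of glutathione synthesis, quinone reduction and heme breakdown through the antioxidant response element. Of 29 measured targets 9 fell and 0 rose, against 0.672% of all genes that fell, and the median log2 fold change of the list was -0.25. Among the 9957 genes above the median untreated level with a RefSeq record, 125 fell. The list was written with earlier results of these data known, and 0 of its members lay below every array median in both groups. The 4 falls that were kept were those of Nqo1, Hmox1, Srxn1 and Ugdh. Nqo1, a quinone reductase, went from 8.33, 8.46 and 8.18 to 6.47, 6.84 and 6.36 (-1.77 ± 0.12, adjusted p = 6.2e-06). Hmox1, which breaks down heme, went from 10.64, 10.59 and 10.45 to 9.61, 9.57 and 9.54 (-0.99 ± 0.10, adjusted p = 0.000119). In both the treated arrays lay within 0.5 of each other and well below every untreated array. Srxn1, which repairs peroxiredoxins, went from 8.47, 8.35 and 8.36 to 7.89, 7.93 and 7.96 (-0.47 ± 0.08, adjusted p = 0.00655). Ugdh, which makes UDP-glucuronic acid, went from 10.31, 10.35 and 10.34 to 9.91, 9.96 and 9.88 (-0.42 ± 0.07, adjusted p = 0.00789, and 0.0547 with only the 6 arrays fitted).

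The other 5 falls were smaller and their calls were lost on leaving out 1 array. Gclm, the modifier subunit of the enzyme that starts glutathione synthesis, stood at -0.52, lost without untreated replicate 1 or 10 uM replicate 1 (adjusted p up to 0.0566). Txnrd1, thioredoxin reductase, stood at -0.40, lost without any 1 of the 6 arrays compared, 1 uM replicate 1 or 3 or PDGF-AB replicate 3 (up to 0.148). Slc7a11, the cystine importer, stood at -0.54, lost without any of the 6 but 10 uM replicate 2, and without 1 uM replicate 2 or PDGF-AB replicate 3 (up to 0.162). Taldo1, of the pentose phosphate pathway, stood at -0.41, lost without any but untreated replicate 2 (up to 0.0766). Blvrb, which acts on biliverdin, also stood at -0.41, lost without any but 10 uM replicate 2, and without 1 uM replicate 1 (up to 0.126). The count of falls in the list ranged from 4 to 9 over the 12 arrays left out. Not all of the list moved this way: 20 members were not called, among them Gclc, the catalytic partner of GCLM, at -0.35 ± 0.11 (adjusted p = 0.156). The glutathione transferase genes Gsto1 and Gsto2, which lie side by side on chromosome 19 and were picked after their values were seen, fell by 0.78 and 0.96 (adjusted p = 0.000137 and 0.000103). They are related copies, and their probe sets may share signal.

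The antioxidant response element was looked for in the promoters of these genes, as windows of RefSeq (GRCm38.p6) from 250 bases before to 50 after a start. The core searched was TGACNNNGC on either strand, and a match is a description and not a site in use. Of the 8 falling targets with a window, 4 held a match, Srxn1, Gclm, Ugdh and 1 of 3 windows of Txnrd1. Hmox1 had no window in the table. The upstream 250 bases of 3 of these genes are shown because their matches lie before the start, with the matches in capitals. They are chr3:122245307-122245556, plus strand, for Gclm, chr10:82858956-82859205, plus strand, for Txnrd1, and chr5:65435843-65436092, minus strand, for Ugdh, which holds 2 matches.
Gclm: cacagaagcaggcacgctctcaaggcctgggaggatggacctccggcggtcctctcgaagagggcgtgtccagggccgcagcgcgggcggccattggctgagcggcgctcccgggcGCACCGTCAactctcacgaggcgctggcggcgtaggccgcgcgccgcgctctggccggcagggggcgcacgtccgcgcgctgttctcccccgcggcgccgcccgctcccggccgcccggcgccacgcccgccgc
Txnrd1: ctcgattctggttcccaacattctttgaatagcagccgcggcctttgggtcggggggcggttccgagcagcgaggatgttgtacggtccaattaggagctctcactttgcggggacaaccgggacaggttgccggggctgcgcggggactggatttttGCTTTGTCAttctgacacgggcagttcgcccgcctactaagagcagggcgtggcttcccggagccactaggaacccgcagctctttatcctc
Ugdh: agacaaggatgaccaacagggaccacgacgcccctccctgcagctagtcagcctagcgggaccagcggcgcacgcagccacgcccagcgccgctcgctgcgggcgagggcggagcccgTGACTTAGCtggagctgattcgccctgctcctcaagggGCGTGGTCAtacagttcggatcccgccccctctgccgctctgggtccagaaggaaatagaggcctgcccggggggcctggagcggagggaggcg
Over all 134 falls, 112 (83.6%) had a window, and 24 of these (21.4%) held the core, against 15.2% of the 15563 tested genes with a window and 12.4% of all 32851 windows. For the AP-1 site TGANTCA the shares were 9.82% of falls, 8.06% of genes and 7.81% of windows. The core of the dioxin response element, GCGTG, through which the aryl hydrocarbon receptor acts, was in 53.6% of falls, 44.4% of genes and 32.4% of windows. The CArG box of serum response factor was in 4.46%, 1.63% and 1.63%. A gene can have several windows, so the shares over genes and over windows differ. Of the 241 rises 75.1% had a window, and of all tested genes 78.1%. Genes without a window could not be searched, and no set was tested against another. The shares are thus given as a description, and no conclusion is drawn from them. Among the 181 rises with a window the antioxidant core was in 17.7%, the AP-1 site in 6.63%, the dioxin core in 51.9% and the CArG box in 1.1%. The shares of rises and of falls were not tested against each other either. In the list of the aryl hydrocarbon receptor, 13 genes with 2 falls and 1 rise, Nqo1 was shared with the NRF2 list. Cyp1b1, a monooxygenase and the receptor's main target in fibroblasts, went from 9.94, 9.79 and 9.82 to 9.36, 9.40 and 9.28 (-0.51 ± 0.08, adjusted p = 0.00445), while Tiparp, another target, stood at -0.42 ± 0.12 (adjusted p = 0.123).

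**Figure D3:**
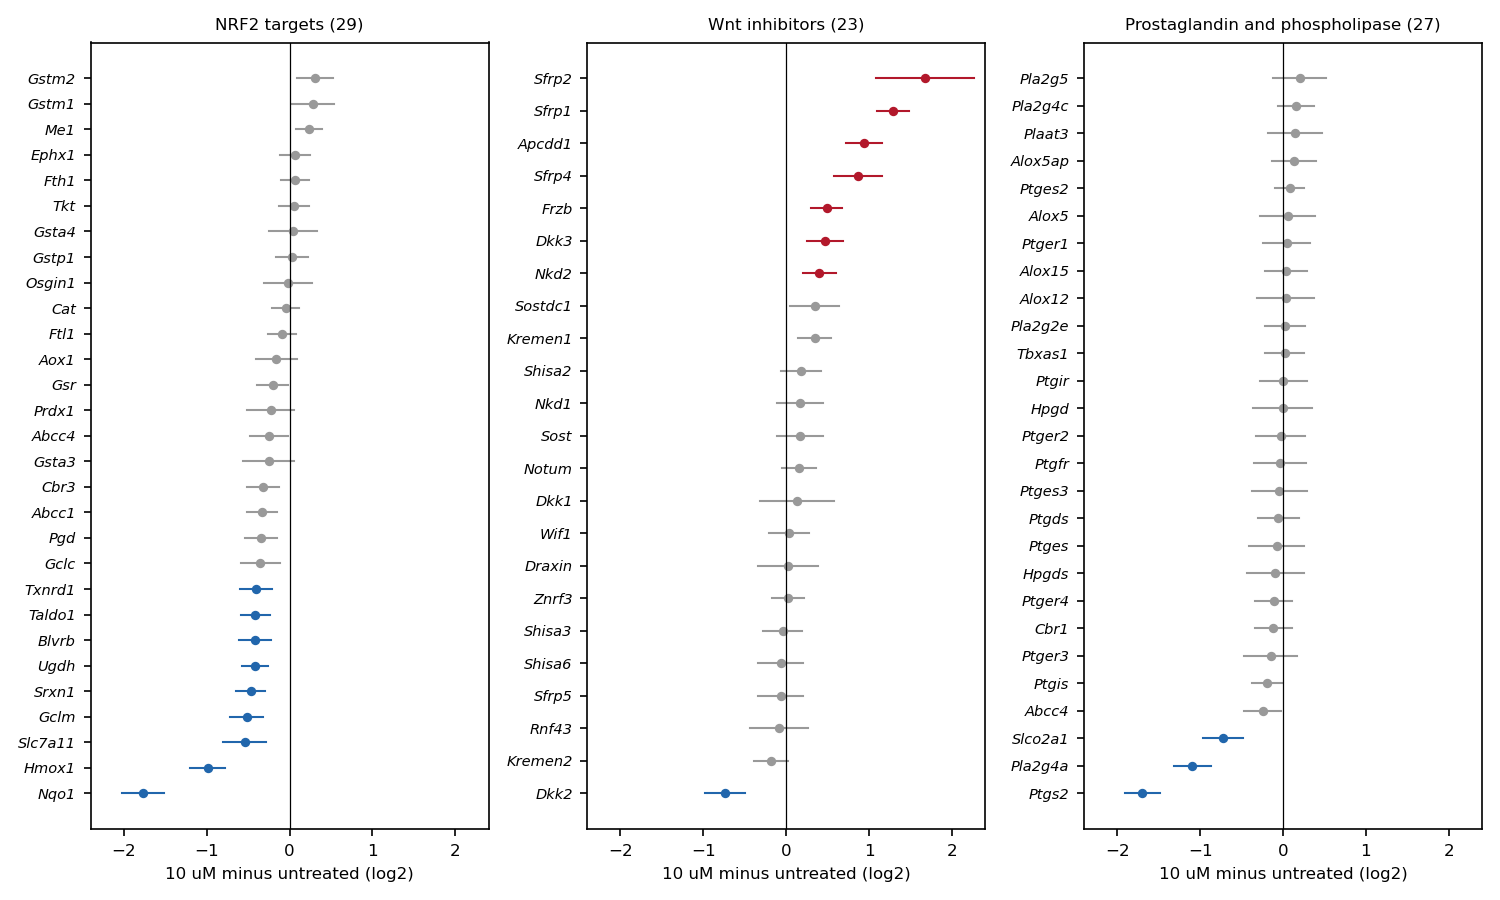
Log2 fold changes at AG1296 10 uM against untreated for every measured member of 3 lists, NRF2 targets (29), Wnt inhibitors (23) and prostaglandin and phospholipase genes (27). Points are fold changes and lines their 95% confidence intervals from the fit, red for genes called higher, blue for genes called lower and grey for genes not called. The prostaglandin list holds 3 deep falls and 24 genes near 0, while the NRF2 list shifts more gradually.

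Transcripts of 2 enzymes at the start of prostaglandin synthesis and of a prostaglandin carrier fell. They were the 3 falls among 27 genes of phospholipases, prostanoid synthases, receptors and transport, of which 0 rose. Over all genes 0.672% fell and 1.21% rose. Pla2g4a encodes the cytosolic phospholipase that releases arachidonic acid. It stood at 7.61, 7.68 and 7.47 untreated and at 6.43, 6.59 and 6.46 at 10 uM, which was a fall of 1.09 ± 0.10 (log2; adjusted p = 6.46e-05). The inducible cyclooxygenase gene Ptgs2, whose product turns the acid into prostaglandin H, went from 9.39, 9.44 and 9.33 to 7.63, 7.78 and 7.67 (-1.70 ± 0.10, adjusted p = 1.66e-06). Slco2a1, a carrier that takes up prostaglandins, went from 8.19, 8.21 and 8.16 to 7.41, 7.42 and 7.54 (-0.73 ± 0.11, adjusted p = 0.00373). In each of the 3 the groups were separated by over 0.6, and the calls were kept under every array left out. The later enzyme Ptgis, prostacyclin synthase, stood at 9.46, 9.30 and 9.33 untreated and at 9.18, 9.18 and 9.17 at 10 uM (-0.19 ± 0.08, adjusted p = 0.39). Pla2g4a and Ptgs2 neighbour each other on chromosome 1.

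Among receptors for lipid and vasoactive signals S1pr3 and Htr2a fell. S1pr3, a receptor of sphingosine-1-phosphate, went from 6.09, 6.06 and 6.34 to 5.00, 5.03 and 5.07 (-1.12 ± 0.10, adjusted p = 5.42e-05). S1pr1, its relative, stood at -0.57 ± 0.15 (adjusted p = 0.0837), near the array medians. Of 19 sphingosine and lysophosphatidic acid genes 1 rose and 1 fell, with a median log2 fold change of 0.04. The rise was Plpp3 (0.44), a phosphatase of lysophosphatidic acid and related lipids, lost without untreated replicate 2 or 3 or 10 uM replicate 1 or 2 (adjusted p up to 0.0766). In the list of 32 endothelin, angiotensin and other vasoactive genes 4 fell and 1 rose, and the median was 0.05. Htr2a, a serotonin receptor, went from 7.49, 7.63 and 7.55 to 6.64, 6.65 and 6.45 (-0.97 ± 0.11, adjusted p = 0.000336). Its treated arrays were all about 1 lower than the untreated ones, and it was the 1 call of this list that was kept. Calcrl (-0.63), a receptor of the calcitonin family, was lost without any 1 of the 6 arrays compared, 1 uM replicate 1 or PDGF-AB replicate 3 (adjusted p up to 0.192). Nppb (-0.77), the natriuretic peptide gene, was lost without any but 10 uM replicate 3 (up to 0.134). Gucy1b1 (-0.52), a subunit of the nitric oxide receptor, was lost without untreated replicate 1 or 2 or 10 uM replicate 1 or 3 (up to 0.0977). Pde5a (0.68), a phosphodiesterase of cyclic GMP, was lost without untreated replicate 1 or 3 or 10 uM replicate 1 or 2 (up to 0.109). Without single arrays the list held 1 to 4 falls. Of the 17 RGS proteins, which end G protein signals, Rgs4 rose, as given above, and Rgs16 fell by 0.89 ± 0.11, from 7.73, 7.67 and 7.51 to 6.70, 6.77 and 6.79 (adjusted p = 0.000563).

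Matrix genes made up the broadest group of rises. Over 9 lists of collagens, proteoglycans, basement membrane, elastic fibre, adhesive glycoproteins, crosslinking enzymes, heparan sulfate and metalloproteinases, 41 of 219 measured genes (18.7%) rose and 7 (3.2%) fell, against 1.21% and 0.672% of all genes. Their median log2 fold change was 0.13, against 0.01 over all genes, and 164 (74.9%) lay above 0. The lists were written with earlier results of these data known, so these shares are a description. The median untreated level of all genes was 4.44, close to the array medians. Among the 9957 genes above the median untreated level with a RefSeq record, 215 rose and 125 fell. Of the 41 rises 27 were kept without any 1 array, and of the 7 falls 6. Leaving out 1 of the 6 arrays compared left 28 to 31 rises, and leaving out untreated replicate 3 or 10 uM replicate 1 gave 28, the lowest of these. The count was 15 in a fit of the 6 arrays with the replicate number as a block, and 55 both without dim genes and with an intensity trend and robust moderation.

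**Figure D4:**
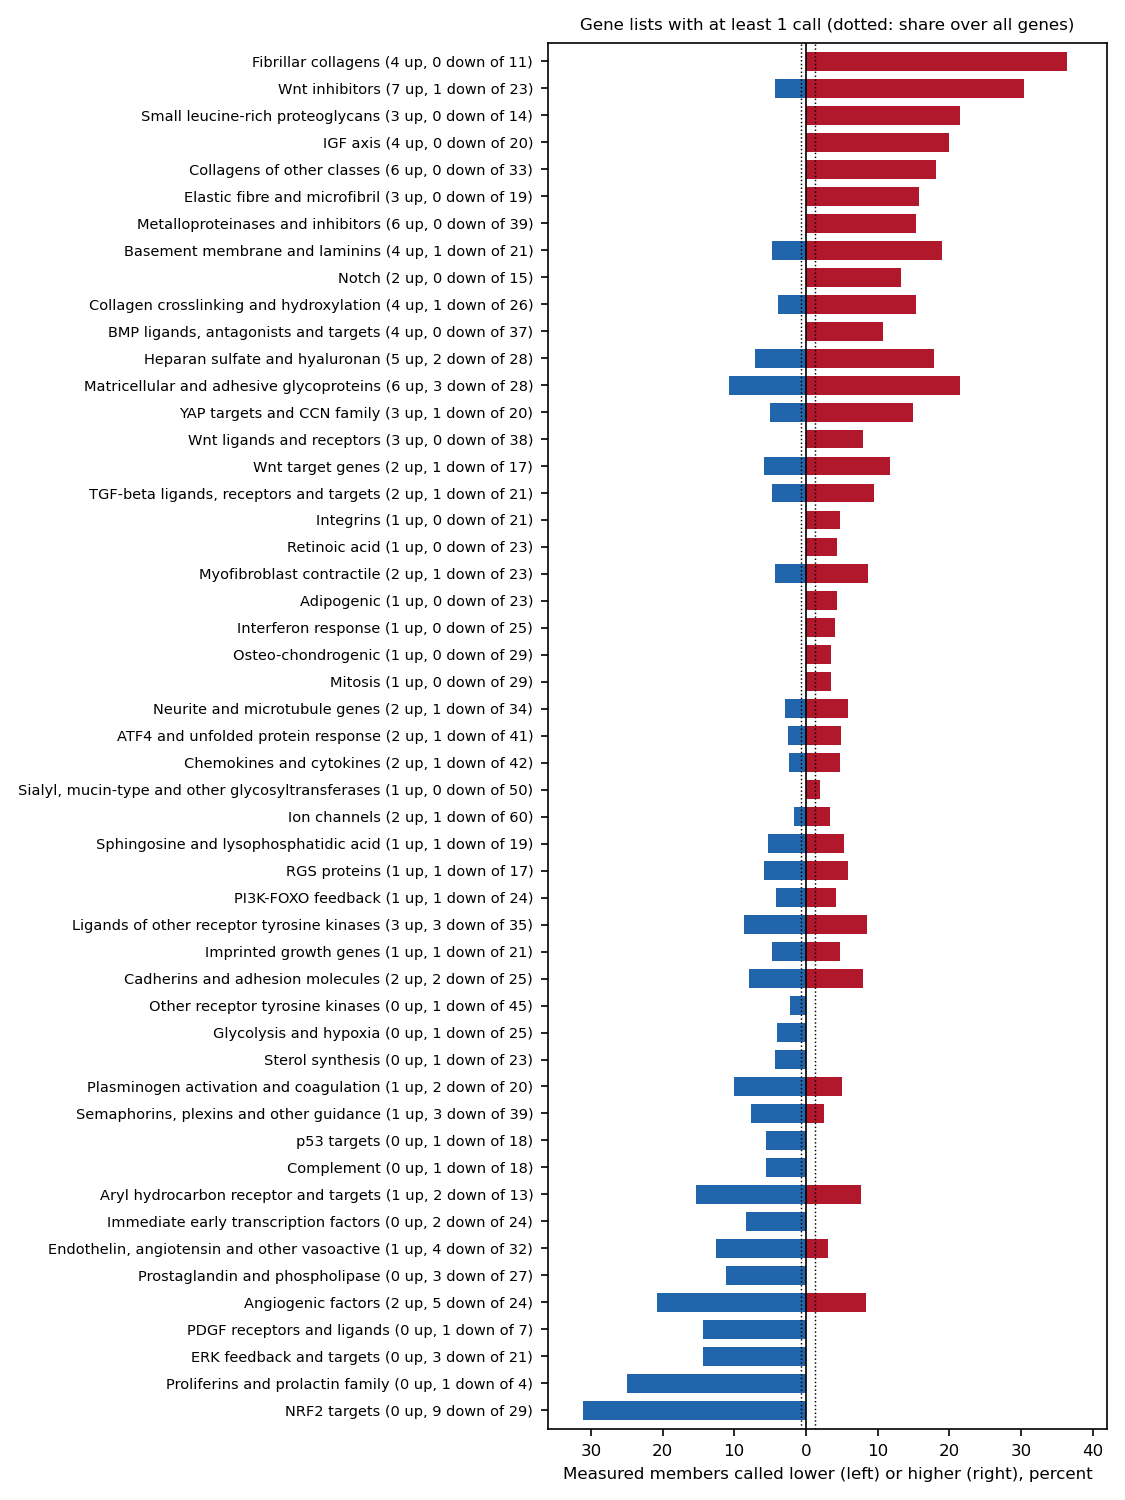
For each pathway list with at least 1 call, bars give the percentage of measured members that were called higher (right, red) or lower (left, blue) at AG1296 10 uM against untreated, with the counts in the labels. Dotted lines mark the shares over all 19938 genes, 1.21% higher and 0.672% lower. Matrix lists, Wnt inhibitors and the IGF axis stand at the top, NRF2 targets at the bottom.

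The collagens that rose were of several classes. Of 11 fibrillar collagens 4 rose and 0 fell. Col3a1 went from 8.39, 8.46 and 8.35 to 8.99, 8.95 and 8.88 (0.54 ± 0.09, adjusted p = 0.00655), Col5a1 from 7.03, 7.09 and 7.09 to 7.53, 7.53 and 7.59 (0.48 ± 0.08, adjusted p = 0.00677) and Col11a1 from 6.50, 6.70 and 6.66 to 7.31, 7.37 and 7.31 (0.70 ± 0.08, adjusted p = 0.000433). The fourth, Col1a1, stood at 11.11, 10.99 and 11.15 against 11.58, 11.53 and 11.71 (0.53 ± 0.10), with its call lost without untreated replicate 1 or 2 or 10 uM replicate 1 or 3 (adjusted p up to 0.0856). Its partner chain Col1a2 did not pass, at 0.22 ± 0.09 (adjusted p = 0.385). Of 33 other collagens 6 rose and 0 fell. Col4a1, the network collagen of basement membranes, rose by 0.63 ± 0.10, from 7.80, 7.81 and 7.80 to 8.48, 8.37 and 8.46 (adjusted p = 0.0033), while Col4a2, the chain it pairs with, stood at 0.35 ± 0.10 (adjusted p = 0.124). Col14a1 and Col12a1, which sit on the surface of collagen fibrils, rose by 0.62 ± 0.08 and 0.59 ± 0.11 (adjusted p = 0.00115 and 0.00913). The calls of Col6a1 (0.41), Col6a2 (0.61) and Col8a1 (0.33) were lost, each without untreated replicate 3 or 10 uM replicate 1 or 2 and, for Col6a1 and Col8a1, without untreated replicate 1 or 2 as well (adjusted p up to 0.108, 0.0586 and 0.178). Col8a1 was lost too without 10 uM replicate 3, any 1 uM array or PDGF-AB replicate 2.

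Small proteoglycans that coat collagen fibrils were higher in part. Of 14 measured 3 rose and 0 fell. Prelp went from 8.52, 8.57 and 8.48 to 9.45, 9.63 and 9.51 (1.00 ± 0.11, adjusted p = 0.000174) and its chromosome 1 neighbour Fmod, fibromodulin, from 3.60, 3.88 and 3.97 to 4.64, 4.86 and 4.71 (0.91 ± 0.11, adjusted p = 0.000557). Dcn, decorin, went from 7.69, 7.63 and 7.61 to 8.28, 8.41 and 8.47 (0.75 ± 0.10, adjusted p = 0.00155). Untreated, Fmod was under the medians of all arrays, where background limits the fold change. Bgn, biglycan, stood at 11.08, 11.22 and 11.14 untreated and at 11.28, 11.42 and 11.29 at 10 uM (0.18 ± 0.08, adjusted p = 0.423). Lum, lumican, was near background in both groups (2.39, 2.50 and 2.58, then 2.46, 2.65 and 2.18).

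Laminin and perlecan led the basement membrane genes, of which 4 of 21 rose and 1 fell. Lama4, the laminin chain of mesenchymal and vessel basement membranes, went from 6.91, 6.98 and 6.79 to 8.11, 8.16 and 8.03 (1.21 ± 0.09, adjusted p = 2.01e-05). Hspg2, perlecan, went from 7.84, 7.82 and 7.86 to 8.47, 8.53 and 8.76 (0.74 ± 0.11, adjusted p = 0.00198), and Smoc1, a calcium-binding matrix protein, from 6.65, 6.67 and 6.69 to 7.44, 7.35 and 7.16 (0.64 ± 0.10, adjusted p = 0.00315). The treated arrays lay above the untreated ones in all 3. Lamc1 stood at 0.48 with its call lost without any 1 of the 6 arrays compared (adjusted p up to 0.136). Npnt, nephronectin, a ligand of integrin alpha 8 beta 1, fell by 0.65 ± 0.11, from 6.64, 6.70 and 6.71 to 6.03, 6.08 and 5.99 (adjusted p = 0.00653). Elastic fibre genes held 3 rises and 0 falls of 19. Mfap4, a microfibril protein, rose by 0.82 ± 0.09, from 7.14, 7.11 and 7.22 to 8.06, 7.88 and 7.98, and Fbln5, which assembles elastin, by 0.70 ± 0.08, from 8.83, 8.77 and 8.81 to 9.50, 9.56 and 9.46. Ltbp3, which holds latent TGF-beta, stood at 0.59, lost without any 1 of the 6 arrays but 10 uM replicate 2 (adjusted p up to 0.0947).

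Adhesive glycoproteins moved in both directions, with 6 rises and 3 falls among 28. Besides Fndc1, the rises included Svep1, a large adhesion protein, from 6.79, 6.78 and 6.74 to 7.77, 7.71 and 7.74 (0.97 ± 0.10, adjusted p = 0.00015), and Postn, periostin, from 9.86, 10.15 and 9.91 to 10.57, 10.77 and 10.63 (0.68 ± 0.11, adjusted p = 0.00381). Thbs2, Matn2 and Ecm1 rose by 0.50, 0.58 and 0.56. Of the falls, those of Mgp and Spon2 were kept. Mgp, an inhibitor of calcification, went from 7.47, 7.38 and 7.28 to 6.57, 6.43 and 6.67 (-0.82 ± 0.10, adjusted p = 0.000524), and Spon2 from 6.72, 6.62 and 6.60 to 5.89, 5.83 and 5.72 (-0.83 ± 0.11, adjusted p = 0.00121). The fall of Thbs1 (-0.32) was lost without any 1 of the 6 arrays compared, any 1 uM array or PDGF-AB replicate 2 or 3 (adjusted p up to 0.194). Fn1, fibronectin, stood at 11.59, 11.64 and 11.50 untreated and at 11.82, 11.91 and 11.97 at 10 uM (0.32 ± 0.11, adjusted p = 0.241). Heparan sulfate and hyaluronan genes held 5 rises and 2 falls of 28. Gpc4, a glypican that presents growth factors and Wnts at the surface, went from 8.96, 8.95 and 8.85 to 9.95, 9.99 and 9.92 (1.04 ± 0.08, adjusted p = 2.01e-05). Gpc6 rose by 0.56 ± 0.09 and Sulf2, which trims heparan sulfate, by 0.54 ± 0.10, while Cd44, the hyaluronan receptor, fell by 0.58 ± 0.09, from 7.53, 7.63 and 7.54 to 6.92, 6.99 and 7.03. The syndecans Sdc1 (0.40) and Sdc3 (0.49) were called but lost, Sdc1 without any 1 of the 6 arrays compared, any 1 uM array or PDGF-AB replicate 3 and Sdc3 without untreated replicate 1 or 3 or 10 uM replicate 2 or 3 (adjusted p up to 0.174 and 0.0863).

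Enzymes that build collagen and the proteases that cut matrix were mostly not called or higher. Of 26 crosslinking and hydroxylation genes 4 rose and 1 fell. The rises of Lox (0.44), Loxl1 (0.37) and Plod2 (0.57) were each lost without any 1 of the 6 arrays compared, and Loxl1 without any 1 uM array or PDGF-AB replicate 2 as well (adjusted p up to 0.0955, 0.179 and 0.114). That of Colgalt1 was kept (0.41 ± 0.07, adjusted p = 0.00977, and 0.0578 with only the 6 arrays fitted). Tll1, a tolloid protease that processes procollagen and prolysyl oxidase, fell by 0.96 ± 0.09, from 8.63, 8.53 and 8.45 to 7.53, 7.55 and 7.63 (adjusted p = 6.46e-05). Metalloproteinases and their inhibitors held 6 rises and 0 falls of 39. Timp3, the inhibitor that binds matrix, went from 9.73, 9.79 and 9.78 to 10.57, 10.63 and 10.45 (0.79 ± 0.08, adjusted p = 0.000177). Adamts5, which cleaves proteoglycans such as versican and aggrecan, went from 10.36, 10.37 and 10.33 to 10.98, 11.09 and 10.97 (0.66 ± 0.08, adjusted p = 0.000525), and Adamtsl2, which has no protease domain, rose by 0.65 ± 0.10. Both a protease and an inhibitor were thus among the kept rises. Mmp14 (0.39), its inhibitor Reck (0.43) and Adamts1 (0.45) were lost, each without untreated replicate 2 or 3 or 10 uM replicate 1 or 2 and, for Mmp14 and Adamts1, without 10 uM replicate 3 (adjusted p up to 0.121, 0.0869 and 0.106). In the plasminogen list of 20 genes 2 fell and 1 rose. Plaur, the urokinase receptor, went from 6.70, 6.77 and 6.86 to 5.99, 6.03 and 5.91 (-0.80 ± 0.09, adjusted p = 0.000191), and Serpinb2, an inhibitor of urokinase, from 4.13, 3.81 and 3.88 to 3.09, 2.89 and 2.92 (-0.98 ± 0.11, adjusted p = 0.000339), near background. Urokinase itself, Plau, stood at -0.53 ± 0.16 (adjusted p = 0.128). Serpinf1, pigment epithelium-derived factor, rose by 0.79 ± 0.08, from 7.79, 7.78 and 7.64 to 8.47, 8.59 and 8.53.

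Several inhibitors of Wnt signalling rose. Wnt ligands act through Frizzled receptors with LRP5 or LRP6, and inhibitors can bind the ligand, act on the receptors or work inside the cell. Of 23 measured inhibitors 7 rose and 1 fell, against 1.21% and 0.672% of all genes, and 15 were not called. Sfrp1, which binds Wnts, went from 7.35, 7.29 and 7.27 to 8.61, 8.66 and 8.49 (1.29 ± 0.09, adjusted p = 6.63e-06). Sfrp2 went from 4.14, 4.72 and 4.91 to 6.16, 6.70 and 5.93 (1.67 ± 0.28, adjusted p = 0.00545) and Sfrp4 from 4.69, 4.77 and 4.55 to 5.68, 5.72 and 5.22 (0.87 ± 0.13, adjusted p = 0.00372). The 3 treated arrays were above the untreated ones in each, with the widest spread in Sfrp2. Apcdd1, a membrane inhibitor, rose by 0.94 ± 0.10, from 6.36, 6.48 and 6.12 to 7.30, 7.33 and 7.16. Frzb (0.49), Dkk3 (0.47) and Nkd2 (0.40) were lost, all 3 without untreated replicate 1 or 10 uM replicate 1 or 2 (adjusted p up to 0.0567, 0.134 and 0.181). Dkk3 was also lost without untreated replicate 2 or 3, and Nkd2 without untreated replicate 3, 10 uM replicate 3, any 1 uM array or PDGF-AB replicate 2 or 3. Dkk2, which binds LRP6, fell by 0.74 ± 0.11, from 5.39, 5.51 and 5.33 to 4.59, 4.82 and 4.60 (adjusted p = 0.00328). Over the arrays left out the list held 4 to 7 rises and 1 fall. Of 38 genes in the list of ligands and receptors, which also held the kinesin gene Kif26b, 3 rose and 0 fell. Kif26b, of the ROR and WNT5A pathway, went from 3.97, 4.02 and 4.29 to 5.31, 5.64 and 5.45 (1.38 ± 0.12, adjusted p = 3.31e-05). Its untreated values were near the array medians, where background can limit the fold change. The co-receptor Lrp5 went from 6.88, 6.88 and 6.94 to 7.44, 7.40 and 7.46 (0.53 ± 0.10, adjusted p = 0.0098). Fzd2 stood at 0.41, lost without any 1 of the 6 arrays but 10 uM replicate 3 (adjusted p up to 0.089). Wnt5a itself stood at -0.26 (adjusted p = 0.343) and its receptor Ror1 at 0.22 (0.571). Of 17 Wnt target genes 2 rose and 1 fell, and Axin2, the most general target, was near background (0.31 ± 0.18, adjusted p = 0.589).

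Ligands and targets of the TGF-beta superfamily changed in part. Of 37 BMP genes 4 rose and 0 fell, against 1.21% and 0.672% of all genes. Bmp6 rose by 0.47 ± 0.08, from 7.19, 7.15 and 7.30 to 7.70, 7.71 and 7.63 (adjusted p = 0.00657), and Fst, follistatin, which binds activin and BMPs, by 0.59 ± 0.09, from 6.77, 6.77 and 6.57 to 7.36, 7.22 and 7.32 (adjusted p = 0.0038). Bmp4 (0.53) and Fstl3 (0.46) were lost, both without any untreated array, 10 uM replicate 1 or 2 or 1 uM replicate 1 (adjusted p up to 0.145 and 0.173), and Fstl3 without 1 uM replicate 2 or 3 or PDGF-AB replicate 3 too. In the TGF-beta list of 21 genes Tgfb2 rose by 0.80 ± 0.12, from 6.91, 6.71 and 6.79 to 7.54, 7.71 and 7.55 (adjusted p = 0.003). The calls of the co-receptor Eng (0.46) and of Inhba (-0.45), an activin subunit, were lost, Eng without untreated replicate 2 or 3 or 10 uM replicate 2 or 3 and Inhba without untreated replicate 1 or 10 uM replicate 1 (adjusted p up to 0.111 and 0.0687). Among 20 YAP targets and CCN proteins 3 rose and 1 fell. Ccn5 rose by 0.70 ± 0.11, from 10.61, 10.46 and 10.58 to 11.19, 11.26 and 11.29, and Ccdc80 by 0.96 ± 0.09, from 7.93, 7.93 and 7.97 to 8.83, 8.94 and 8.94. Ccn4 fell by 0.52 ± 0.08, from 8.26, 8.16 and 8.17 to 7.68, 7.66 and 7.69, so members of 1 family moved in opposite directions. Ccn1, the main YAP target of the family, stood at 0.07 (adjusted p = 0.834). Contractile genes of the myofibroblast held 2 rises and 1 fall of 23 with no call kept. Myh11 (0.54) was lost without untreated replicate 1 or 3, 10 uM replicate 1 or 2, any 1 uM array or PDGF-AB replicate 2 or 3 (adjusted p up to 0.187). Smtn (0.43) was lost without untreated replicate 2 or 3 or 10 uM replicate 1 (up to 0.0798), and Pdlim5 (-0.42) without any 1 of the 6 arrays but 10 uM replicate 2 (up to 0.0934). Acta2, smooth muscle actin, stood at 12.57, 12.70 and 12.59 untreated and at 12.53, 12.58 and 12.51 at 10 uM (-0.08 ± 0.08, adjusted p = 0.805), and Tagln at -0.26 (0.123). The Notch ligand Jag1 rose by 0.54 ± 0.09, from 8.50, 8.65 and 8.66 to 9.15, 9.25 and 9.03. Sox9, a transcription factor of chondrocytes and of activated fibroblasts, rose by 0.76 ± 0.08, from 7.23, 7.26 and 7.23 to 7.92, 8.00 and 8.09 (adjusted p = 0.000264), the 1 call among 29 osteo-chondrogenic genes.

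Guidance and adhesion genes also moved both ways. Of 39 semaphorins, plexins and other guidance genes 1 rose and 3 fell, against 1.21% and 0.672% of all genes. All of these calls were kept. Sema3d rose by 0.67 ± 0.09, from 7.88, 7.79 and 7.79 to 8.50, 8.59 and 8.39, while its chromosome 5 neighbour Sema3a fell by 0.73 ± 0.13, from 6.19, 6.32 and 6.11 to 5.22, 5.67 and 5.54. Sema3e fell by 0.67 ± 0.11 and Nrn1, neuritin, fell by 1.59 ± 0.15, from 7.14, 7.33 and 7.20 to 5.52, 5.68 and 5.70. Class 3 semaphorins thus held both a rise and falls. Itgb8, the integrin chain that activates latent TGF-beta, rose by 0.87 ± 0.11, from 5.90, 6.03 and 5.84 to 6.86, 6.92 and 6.60 (adjusted p = 0.000636), the 1 call among 21 integrins. Tln1 and Tln2, the talins that join integrins to actin, rose by 0.87 ± 0.10 and 0.90 ± 0.10 (adjusted p = 0.000247 for both), and the cytolinker Plec by 0.77 ± 0.10. These 3 genes, and Lrp1 (0.83) and Heg1 (0.79), large surface receptors that also rose, were picked after their values were seen. Icam1 rose by 0.66 ± 0.11 and Mcam (CD146), found on pericytes and endothelium, fell by 0.59 ± 0.09. Among the 16 endothelial markers Ptprb fell by 0.68 ± 0.09, from 7.94, 7.86 and 7.91 to 7.24, 7.18 and 7.25. Pecam1 and Cdh5 were below every array median in both groups, and the list had a mean level of the list of 4.02 to 4.13 untreated and 4.01 to 4.07 at 10 uM.

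Markers of mesothelial and epicardial cells held 2 falls of 15. Upk1b, uroplakin 1b, went from 6.83, 6.96 and 7.01 to 5.85, 5.84 and 5.74 (-1.13 ± 0.09, adjusted p = 2.09e-05), and Lrrn4 from 5.15, 5.29 and 5.37 to 4.30, 4.37 and 4.61 (-0.84 ± 0.14, adjusted p = 0.00545). The mean level of the list was 4.99 to 5.07 untreated and 4.89 to 4.92 at 10 uM, and 4 of the 15 lay below every array median. The median log2 fold change of the list was 0.03 and 8 of the 15 lay above 0, so most members did not share these falls. Wt1, the epicardial transcription factor, stood at 4.43, 4.25 and 4.36 untreated and at 4.49, 4.06 and 4.29 at 10 uM (-0.07, adjusted p = 0.904). The part that a few such cells have in these or other falls was not tested.

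Division genes held few calls, as did all genes, of which 1.88% were called. At that share, lists of this size would hold few or no calls. Of 29 replication genes and 20 G1 cyclins and inhibitors 0 passed, and of 29 mitosis genes 1, Cenpf, which stood at 0.49 with its call lost without untreated replicate 1 or 3 or 10 uM replicate 2 or 3 (adjusted p up to 0.094). Ccnd1, cyclin D1, stood at 11.23, 11.15 and 11.18 untreated and at 11.05, 11.07 and 11.13 at 10 uM (-0.10 ± 0.08, adjusted p = 0.71). The lists of fibroblast and epicardial transcription factors (39 genes), Hedgehog (14) and fatty acid synthesis (16) also held 0 calls. A p that misses the threshold does not show that these genes were equal. Among 18 p53 targets Plk2, a polo-like kinase that growth factors also induce, fell by 0.69 ± 0.10, from 9.12, 9.21 and 8.95 to 8.43, 8.45 and 8.34 (adjusted p = 0.00293). Of 25 glycolysis genes the 1 call was Hk2 (-0.42), lost without any 1 of the 6 arrays but 10 uM replicate 2, and without any 1 uM array (adjusted p up to 0.179). Of 42 chemokine and cytokine genes, Il6st, the shared receptor of the interleukin 6 family, rose by 0.49 ± 0.08, and Cxcl12 stood at -0.49 with its call lost without untreated replicate 1 or 2 or 10 uM replicate 3 (adjusted p up to 0.0728).

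Some called genes were neighbours, and the rises had a longer median span than all genes. Of the 375 called genes 13 pairs lay next to each other among the measured genes in RefSeq, 10 of them changed in the same direction, among them Prelp and Fmod, Col6a1 and Col6a2, Adamts1 and Adamts5, and Slc5a3 and Mrps6. Slc5a3, a myo-inositol importer, fell by 0.93 ± 0.08 (adjusted p = 3.04e-05) and Tes, an actin-binding protein next to Tfec, by 0.84 ± 0.08 (adjusted p = 6.46e-05), both picked after their values were seen. The count of pairs was not set against chance, and some pairs, such as Gsto1 and Gsto2 or Col6a1 and Col6a2, are related genes. The calls of Mrps6 (-0.40) and Tfec (-0.41) were lost, Mrps6 without any 1 of the 6 arrays but 10 uM replicate 2 and Tfec without any 1 of them (adjusted p up to 0.0995 and 0.0946). The median span from start to end was 58.8 kb over the 241 rises, 22.3 kb over the 134 falls and 17.7 kb over all genes with a record. Called genes also had higher levels, with a median untreated level of 6.65 for rises and 7.26 for falls against 4.44. Among the 9957 genes above the median level with a span, the medians were 58.8, 21.9 and 23.9 kb. Divided by span into 4 equal bins, 1.12%, 1.33%, 1.77% and 4.42% of these genes were called higher, from the shortest to the longest, and 1.36%, 1.21%, 0.763% and 1.69% lower. The longest bin, above 56.4 kb, thus held 110 of the 215 rises above the median level. Its median untreated level of 6.34 was close to the 6.29 of the shortest bin.

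The response at 10 uM was set against that at 1 uM by a direct test between these arrays. At 10 uM, 75 of 19938 genes (0.376%) differed from 1 uM, 39 (0.196%) higher and 36 (0.181%) lower. With each array centred on its median the split was 21 higher and 31 lower. Of the 375 genes called against untreated, 31 were among the 75, though the contrasts share the 10 uM arrays. Of the 75 calls 12 were kept without any 1 array, 11 of them lower at 10 uM than at 1 uM and 1 higher, and the count was 16 to 82 over the arrays left out. It was 16 without 10 uM replicate 1 or 1 uM replicate 2, and 49, 39, 19, 26 and 29 without untreated replicate 2, 10 uM replicate 2, 10 uM replicate 3, 1 uM replicate 1 and 1 uM replicate 3. Except for Dcn, Mfap4, Slc7a11 and Mcam, which the naming rule gave, the 12 are named after their values were seen.

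Lum showed the widest gap between the doses. It stood at 4.49, 4.49 and 4.21 at 1 uM and at 2.46, 2.65 and 2.18 at 10 uM, a difference of -1.96 ± 0.13 (SE; limma adjusted p = 1.22e-05), with the untreated arrays at 2.39, 2.50 and 2.58. Fibin, a secreted protein first described in fin development, stood at 6.47, 6.40 and 6.34 at 1 uM and at 5.00, 4.75 and 4.86 at 10 uM (-1.53 ± 0.09, adjusted p = 4.68e-06). Npy1r, a neuropeptide Y receptor, stood at 4.49, 4.73 and 4.68 against 3.12, 3.51 and 3.01 (-1.42 ± 0.13, adjusted p = 0.000216). In these 3 genes the comparison of 10 uM with untreated did not pass (log2 fold changes of -0.06, 0.30 and 0.49, adjusted p = 0.935, 0.153 and 0.0736). At 10 uM Lum and Npy1r lay below every array median, so background limits the size of their gaps. Cdo1, cysteine dioxygenase, the imprinted gene Peg10, the chemokine gene Ccl17, the metallothionein Mt2 and the lymphatic growth factor Vegfc differed by -1.16, -1.04, -0.85, -0.71 and -0.63, again with no call against untreated at 10 uM. The dose difference of Vegfc had an adjusted p of 0.0644 with only the 6 inhibitor arrays fitted. Dcn and Mfap4 were high at both doses but lower at 10 uM. Dcn stood at 9.43, 9.47 and 9.15 at 1 uM against 8.28, 8.41 and 8.47 (-0.96 ± 0.10, adjusted p = 0.000998), and Mfap4 at 8.69, 8.72 and 8.76 against 8.06, 7.88 and 7.98 (-0.75 ± 0.09, adjusted p = 0.00145).

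The values of Slc7a11 lay above the untreated ones at 1 uM and below them at 10 uM. It stood at 6.99, 7.11 and 7.19 at 1 uM and at 6.02, 6.31 and 6.19 at 10 uM, with 6.61, 6.83 and 6.72 in untreated cells, and the doses differed by -0.92 ± 0.12 (adjusted p = 0.00491). The 3 groups did not overlap. No test of 1 uM against untreated is given here, and the call of the fall at 10 uM against untreated was lost, as described above. Hmox1, another NRF2 target, was also lower at 10 uM than at 1 uM, by 0.61 ± 0.10 (adjusted p = 0.0184), but this call was lost without any 1 of the 6 inhibitor arrays (up to 0.094). Mcam was the 1 kept call in the other direction, at 6.08, 5.88 and 5.87 at 1 uM and 6.69, 6.80 and 6.82 at 10 uM (0.83 ± 0.09, adjusted p = 0.0011), both under the untreated values of 7.38, 7.35 and 7.35. Nrn1 (1.08) and Dkk2 (0.80) were likewise less deep at 10 uM, with calls lost without 10 uM replicate 3 and without 1 uM replicate 2 respectively (adjusted p up to 0.0518 for both). The calls of Igf1 (-0.66), Hecw1 (0.68), Plac8 (0.88) and Tnfsf18 (-0.70) were lost too, that of Igf1 without 10 uM replicate 1 or 1 uM replicate 2 (up to 0.055), and those of the others without any 1 of the 6 inhibitor arrays, for Plac8 except 10 uM replicate 2, and others besides (up to 0.124, 0.181 and 0.193). Of 23 sterol synthesis genes, Hmgcs1 (0.61), Fdps (0.53) and Nsdhl (0.51) were called higher at 10 uM than at 1 uM and 0 lower. Over all genes 0.196% were called higher and 0.181% lower. The list and its 3 genes were picked here after their values were seen, and none of the 3 calls was kept. These calls were lost without 10 uM replicate 1 or 1 uM replicate 2 and, for Fdps and Nsdhl, without most other arrays (adjusted p up to 0.0579, 0.174 and 0.192). Against untreated, the 3 genes stood at 0.12, 0.18 and 0.08 at 10 uM and at -0.49, -0.35 and -0.43 at 1 uM.

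**Figure D5:**
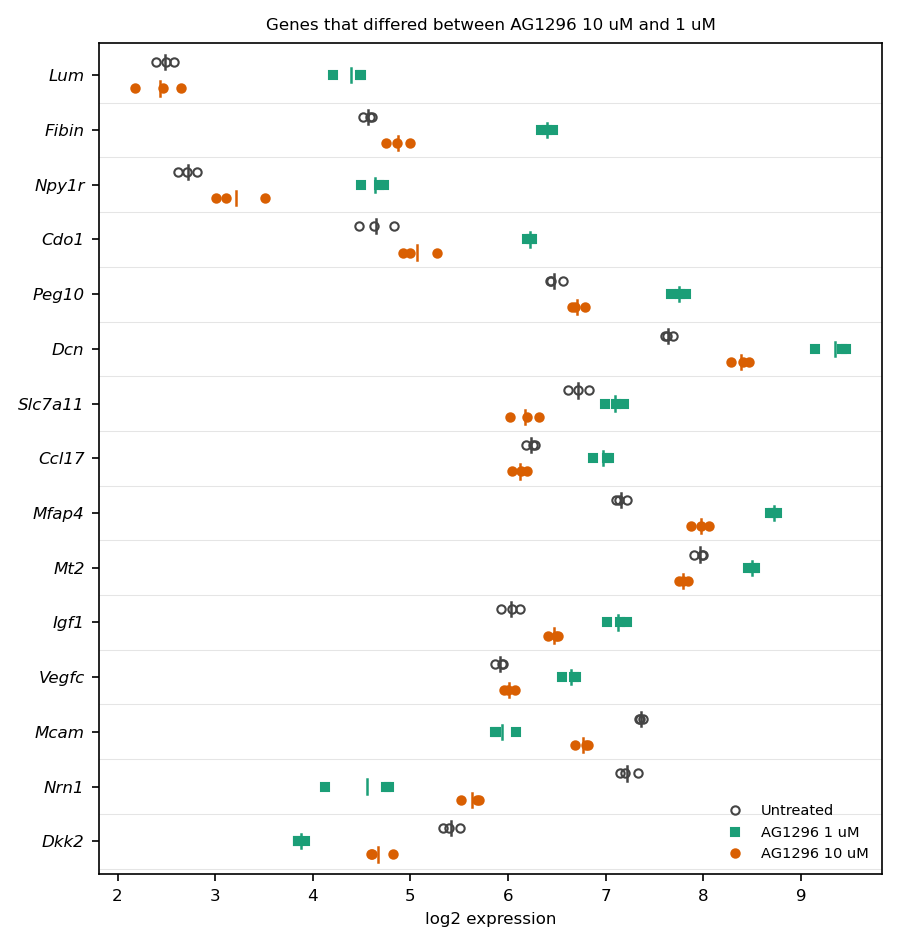
Values of each array (points) and group means (bars) in log2 expression for 15 genes called between AG1296 10 uM and 1 uM. Open grey circles are untreated cells, green squares 1 uM and orange circles 10 uM, 3 arrays each. From Lum to Vegfc the 1 uM arrays lie above the 10 uM arrays, and in Mcam, Nrn1 and Dkk2 below them.

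For the genes with large changes at 10 uM, the values at 1 uM and with PDGF-AB are given side by side, with no comparison of the responses, since all 3 differences use the same untreated arrays. Ptgs2 stood at -1.70 at 10 uM, -1.48 at 1 uM and 0.29 with PDGF-AB. Nqo1 stood at -1.77, -1.81 and 0.43 in that order, Grb14 at 1.17, 1.09 and -0.10, and Gpc4 at 1.04, 1.09 and -0.45. These 4 genes, and the 5 that follow, were picked after their values were seen. S1pr3 stood at -1.12, -1.74 and 0.66, Ch25h at -1.44, -1.06 and 0.60 and Sema3d at 0.67, 1.11 and -0.59. Fosb stood at -0.84, -0.72 and -0.87, and Sfrp1 at 1.29, 0.84 and -0.02.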

How the data were processed

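RNA of cultured cells was hybridised to 12 Affymetrix mouse gene arrays. The authors deposited 1 normalized log2 value per probe set and array; RMA and limma are named in the submitters' processing notes, and that the scale is log2 was read from the values. Of 28853 probe sets, 21789 (75.5%) carry 1 gene symbol; the brightest of these per gene was kept, giving 19938 genes. The number of arrays limits the precision. All 12 arrays were fitted by group in limma 3.58.1 (R 4.3.3), with Benjamini-Hochberg adjusted p-values over all genes and a threshold of 0.05. The procedure was tested on simulated data. Named were the 15 largest rises and falls, called list members and members that define a list, the PDGF genes, Kit and Fgfr1, and the 5 largest called dose differences each way among genes also called against untreated. Predicted genes, olfactory, vomeronasal and taste receptors and small RNAs were not named. The members and gene lists were chosen with earlier results of these data known. Alternatives changed the arrays fitted, the pairing, the normalization, dim genes, the moderation and the probe sets. Spans and promoters come from RefSeq (GRCm38.p6).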

Additional observations from a re-analysis of the deposited data

Results flagged for a closer look

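Probe sets outside the gene-level comparison also passed the same limma threshold when all probe sets were tested together. Of 5443 probe sets with no symbol 15 were called, and of 1621 with several symbols 11. The largest rise among those with no symbol was 0.89 ± 0.10 (log2 fold change ± SE, adjusted p = 0.00052) and their deepest fall -0.95 ± 0.21 (adjusted p = 0.0462). A probe set with 3 symbols fell by 2.24 ± 0.20 (adjusted p = 0.000136). These are named by no gene here, since the annotation gives none or several.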

How the results depend on the processing

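Against untreated, 375 genes were called; the count was 218 in a fit of the 6 arrays alone, 674 with dim genes left out (10137 tested), 686 with an intensity trend and robust moderation, and 219 to 434 without single arrays. For 10 uM against 1 uM, with 75 calls, these counts were 14, 179, 209 and 16 to 82. The 6-array fit and the fits without single arrays use fewer samples and the fit without dim genes tests fewer genes. Leaving out PDGF-AB replicate 1 raised the counts, to 434 and 82. Why the counts moved was not tested for any of these settings. Same-numbered arrays of the compared groups correlated in their deviations at -0.016, 0.221 and 0.162. Arrays of different number were not correlated, so these values cannot decide whether the arrays were paired. Same-numbered arrays are treated as sharing only a number. With the replicate number as a block the counts were 391 and 77 over 12 arrays, and 104 and 7 over 6. Median centring gave 293 calls against untreated, 56.0% of them higher, against 64.3%. Of the 375 calls 95 were kept under every alternative. Among genes named, 5 that were not called changed sign without 1 array: Lum ranged from -0.170 to 0.0689 (above 0 without 10 uM replicate 3), Pdgfb from -0.180 to 0.0222 (10 uM replicate 1), Pdgfc from -0.126 to 0.101 (untreated replicate 3, and also 10 uM replicates 1 and 3), Pecam1 from -0.0126 (below 0 without 10 uM replicate 1) to 0.210 and Wt1 from -0.172 to 0.0406 (above 0 without 10 uM replicate 2). Over single genes and settings, 4498 values kept direction and side of the threshold, 753 lost the call and 19 gained one. Values near the array medians are limited by background.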
